A study of Mus musculus with 217 samples.

Results

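The 4 genes described here are Dbp, Tef and Hlf, which encode the PAR bZIP transcription factors (leucine zipper proteins named for a region rich in proline and acidic residues), and Nfil3, which encodes a related leucine zipper protein. They were taken by name from the deposited expression tables of 3 mouse striatal subregions, in which 12270 genes were listed in all. Dbp, Tef, Hlf and Nfil3 were in the tables of the dorsomedial striatum (DMS, 12101 genes) and the nucleus accumbens (NAc, 11867 genes). Dbp, Tef and Hlf were also in the table of the dorsolateral striatum (DLS, 11394 genes), in which Nfil3 had no row. RNA came from bilateral 1 mm punches of C57BL/6J mice of both sexes, about 10 weeks old, kept in a 12:12 light/dark cycle, and the labels give no mutation or treatment for any group. Each subregion was sampled at 6 zeitgeber times (ZT, hours after lights on, with lights off at ZT12), namely ZT2, ZT6, ZT10, ZT14, ZT18 and ZT22, with 5 to 7 libraries per sex and time. There were 70 libraries from DLS (35 female, 35 male), 70 from DMS (34 female, 36 male) and 77 from NAc (37 female, 40 male), from 93 animals.

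As background, the PAR bZIP factors activate transcription from D-box elements, and NFIL3 (also called E4BP4) binds the same elements and represses. Dbp is itself driven by CLOCK and BMAL1 through E-boxes, whereas Nfil3 is repressed through ROR elements by REV-ERBα, the product of Nr1d1, and in liver the activators and the repressor of the D-box peak at opposite times. In brain the PAR bZIP factors are known for their control of pyridoxal phosphate metabolism, and mice that lack all 3 have seizures.

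The sequences upstream of the members are shown for the elements by which the clock is known to reach this family. Each is the 250 bases before a transcription start in RefSeq (GRCm38.p6), 5′ to 3′ on the strand of the gene. By the GENCODE gene coordinates given below, both Tef windows lie inside the gene and those of Dbp and Nfil3 lie partly inside. All 4 members matched the RefSeq table, Tef with 2 starts. Capitals mark matches, on either strand, to CACGTG (the E-box bound by CLOCK and BMAL1), TTANGTAA (the D-box), AGGTCA (the core of the ROR element) and TGACGTCA (the cAMP response element). No 2 matches overlapped. The windows are chr7:45704997-45705246 (+) for Dbp, chr15:81802423-81802672 (+) and chr15:81811164-81811413 (+) for Tef, chr11:90390918-90391167 (-) for Hlf and chr13:52981040-52981289 (-) for Nfil3.
Dbp: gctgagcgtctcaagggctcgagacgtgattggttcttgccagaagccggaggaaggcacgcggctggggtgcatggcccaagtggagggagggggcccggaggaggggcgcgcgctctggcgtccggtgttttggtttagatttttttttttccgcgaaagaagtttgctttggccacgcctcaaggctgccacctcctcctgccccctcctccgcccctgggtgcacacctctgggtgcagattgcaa
Tef start 1: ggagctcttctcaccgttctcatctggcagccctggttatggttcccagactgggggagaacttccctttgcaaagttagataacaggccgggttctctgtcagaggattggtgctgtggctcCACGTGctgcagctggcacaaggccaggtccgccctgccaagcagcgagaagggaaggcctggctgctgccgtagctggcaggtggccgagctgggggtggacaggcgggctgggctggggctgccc
Tef start 2: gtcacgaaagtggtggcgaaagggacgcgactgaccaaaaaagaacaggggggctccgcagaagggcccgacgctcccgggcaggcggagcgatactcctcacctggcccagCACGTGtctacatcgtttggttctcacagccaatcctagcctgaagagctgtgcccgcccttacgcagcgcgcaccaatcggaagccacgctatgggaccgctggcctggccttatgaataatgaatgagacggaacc
Hlf: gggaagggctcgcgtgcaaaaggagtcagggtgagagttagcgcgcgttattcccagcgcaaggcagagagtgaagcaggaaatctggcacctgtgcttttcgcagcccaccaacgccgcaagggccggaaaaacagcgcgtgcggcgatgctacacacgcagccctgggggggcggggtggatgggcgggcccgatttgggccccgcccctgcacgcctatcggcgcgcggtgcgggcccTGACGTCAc
Nfil3: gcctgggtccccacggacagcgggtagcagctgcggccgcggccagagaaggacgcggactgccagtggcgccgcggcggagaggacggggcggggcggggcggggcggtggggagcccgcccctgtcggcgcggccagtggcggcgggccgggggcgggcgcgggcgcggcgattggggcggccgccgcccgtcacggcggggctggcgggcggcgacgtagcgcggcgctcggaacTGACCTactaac
Both Tef windows held the E-box, 127 to 122 bases before the first start and 138 to 133 before the second, and 6.02% of all 32851 RefSeq windows of this length held one. The Hlf window held the cAMP response element 9 to 2 bases before the start (1.55% of windows). The Nfil3 window held the ROR core on the opposite strand, printed as its reverse complement TGACCT, 12 to 7 bases before the start (14.0% of windows). The Dbp window had none of the 4 motifs, and none of the 5 windows had the D-box, which 2.06% of windows held. A match describes the letters of the window and is not shown to be a binding site.

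Expression values are the authors' log2 of normalised counts, scaled within each subregion, so levels are not compared between subregions. The recovered reads per library were 29719087 to 56799764 in DLS and 35711640 to 57468484 in DMS, and depth is unknown in NAc, whose values carry a further adjustment that no label records. DMS libraries fell into 2 classes by their share of mitochondrial ribosomal RNA, 33 high (35.3% to 52.6%) and 37 low (19.02% to 29.9%). The high class held between 2 of 12 libraries (ZT22) and 10 of 12 (ZT18) at a time, so DMS values fitted with a term for the class are given beside the members' results whose call they change. A single DLS library (male, ZT6, animal 13) had 68.3% of its normalised counts in Gm42418, against a median of 0.971% in the others, and without it the DLS amplitudes of the members were 0.67 for Dbp, 0.27 for Tef and 0.22 for Hlf. Of 10 markers of medium spiny neurons, the principal striatal neurons, all were in each table, and, beside 21%, 51.3% and 2.56% of all genes in DLS, DMS and NAc, 7 were rhythmic in DLS, 5 in DMS and 0 in NAc (2 at an unadjusted p under 0.05 in limma). Their summed level, as means by time on the log2 scale, spanned 17.64 to 17.77 in DLS, 17.75 to 17.92 in DMS and 16.96 to 17.14 in NAc. Of 6 endothelial markers 4, 5 and 3 were rhythmic in DLS, DMS and NAc, with summed levels of 12.22 to 12.38, 12.51 to 12.65 and 11.87 to 12.17. Of the other marker lists, 0, 2 and 0 astrocyte, 1, 5 and 0 oligodendrocyte and 1, 3 and 0 microglial markers (6 each) were rhythmic in DLS, DMS and NAc, with 0, 2 and 0 of 3 precursor markers and none of the red blood cell (4), cortical excitatory (4 or 5) and ependymal or choroid (2 in DMS, 1 in NAc) markers. At an unadjusted p under 0.05 in limma, these lists, where 0 were called, had 2 cortical excitatory, 2 astrocyte and 3 microglial markers in NAc. In the same way there were 1 red blood cell marker in DMS and 1 astrocyte and 1 precursor marker in DLS. The share of all genes at that threshold was not computed. The summed level of oligodendrocyte markers spanned 16.28 to 16.57, 16.92 to 17.35 and 16.07 to 16.22 in DLS, DMS and NAc, that of cortical excitatory markers 11.47 to 11.81, 11.39 to 11.71 and 11.55 to 12.38, and that of red blood cell markers 10.79 to 11.49, 10.34 to 11.37 and 10.60 to 11.10. Astrocyte markers spanned 15.01 to 15.06, 15.31 to 15.47 and 15.14 to 15.25, microglial markers 12.39 to 12.54, 12.59 to 12.76 and 12.36 to 12.60 and precursor markers 11.39 to 11.55, 11.93 to 12.05 and 11.57 to 11.74. The sum of the ependymal or choroid markers spanned 8.54 to 11.04 in DMS and 6.07 to 6.55 in NAc. Their part in the members' rhythms was not tested, and in bulk RNA fewer cells of a type and less RNA per cell cannot be told apart.

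Dbp, a D-box activator, had the clearest daily rhythm of the 4 members and was high around the change from light to dark in every subregion. In DLS its median was 10.84 (ZT2), 11.61 (ZT6), 12.18 (ZT10), 12.07 (ZT14), 11.58 (ZT18) and 11.15 (ZT22). In DMS the medians were 11.32 (ZT2), 11.88 (ZT6), 12.52 (ZT10), 12.27 (ZT14), 11.76 (ZT18) and 11.36 (ZT22), and in NAc 10.89 (ZT2), 11.35 (ZT6), 11.92 (ZT10), 11.70 (ZT14), 11.26 (ZT18) and 11.10 (ZT22). ZT10 had the highest mean and ZT2 the lowest in all 3 subregions. The neighbours ZT6 and ZT18 in this order differed by less than the larger SD in all 3, as did ZT22 and ZT2 in DMS and NAc and ZT14 and ZT10 in NAc.

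At ZT14 the 12 DLS libraries had Dbp at 11.76 to 12.17 (median 12.07), against 10.23 to 11.14 (median 10.84) in 11 at ZT2, with no overlap. The difference, ZT14 minus ZT2, was 1.24 ± 0.07 (log2 ± SE, adjusted p = 1.78e-23, limma with Benjamini-Hochberg adjustment over the table, as in all tests of time below). In DMS the 11 libraries at ZT14 had 12.10 to 12.46 (median 12.27), against 11.13 to 11.45 (median 11.32) in 12 at ZT2, again apart, and the difference was 0.98 ± 0.06 (adjusted p = 7.36e-22). In NAc the 13 libraries at ZT14 had 11.11 to 12.15 (median 11.70), against 10.65 to 11.23 (median 10.89) in 13 at ZT2, which overlap, and the difference was 0.77 ± 0.09 (adjusted p = 5.2e-09). Dbp was lower at ZT22 than at ZT10, with differences of -1.10 ± 0.07, -1.14 ± 0.06 and -0.74 ± 0.09 in DLS, DMS and NAc (adjusted p = 7.65e-21, 1.85e-25 and 3.23e-08), and these times did not overlap in any subregion. ZT18 minus ZT6 was 0.01 ± 0.07, -0.05 ± 0.06 and -0.07 ± 0.09 (adjusted p = 0.955, 0.559 and 0.851).

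A cosine of 24 h with a term for sex gave Dbp an amplitude (peak above the mean, log2 ± SE) of 0.67 ± 0.03 in DLS, 0.61 ± 0.02 in DMS and 0.43 ± 0.04 in NAc (n = 70, 70 and 77). These are folds of 2.54, 2.34 and 1.82 from trough to peak, with fitted peaks at ZT12.2, ZT11.7 and ZT11.9 (adjusted p = 1.34e-26, 2.34e-31 and 1e-13). By this p Dbp ranked 2 of 11394 genes in DLS, 1 of 12101 in DMS and 1 of 11867 in NAc. Dbp lies at chr7:45705088-45710203 (+, GENCODE release M21, GRCm38) and overlaps Sphk2, a sphingosine kinase gene on the opposite strand, by 737 bases. Whether the authors' counting used strand is not stated, so reads from the shared bases are uncertain. Sphk2 had a smaller rhythm near the opposite phase, with amplitudes of 0.21, 0.26 and 0.19 and peaks at ZT23.3, ZT22.5 and ZT1.39 in DLS, DMS and NAc (adjusted p = 4.43e-05, 1.64e-07 and 0.0441).

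**Figure D1:**
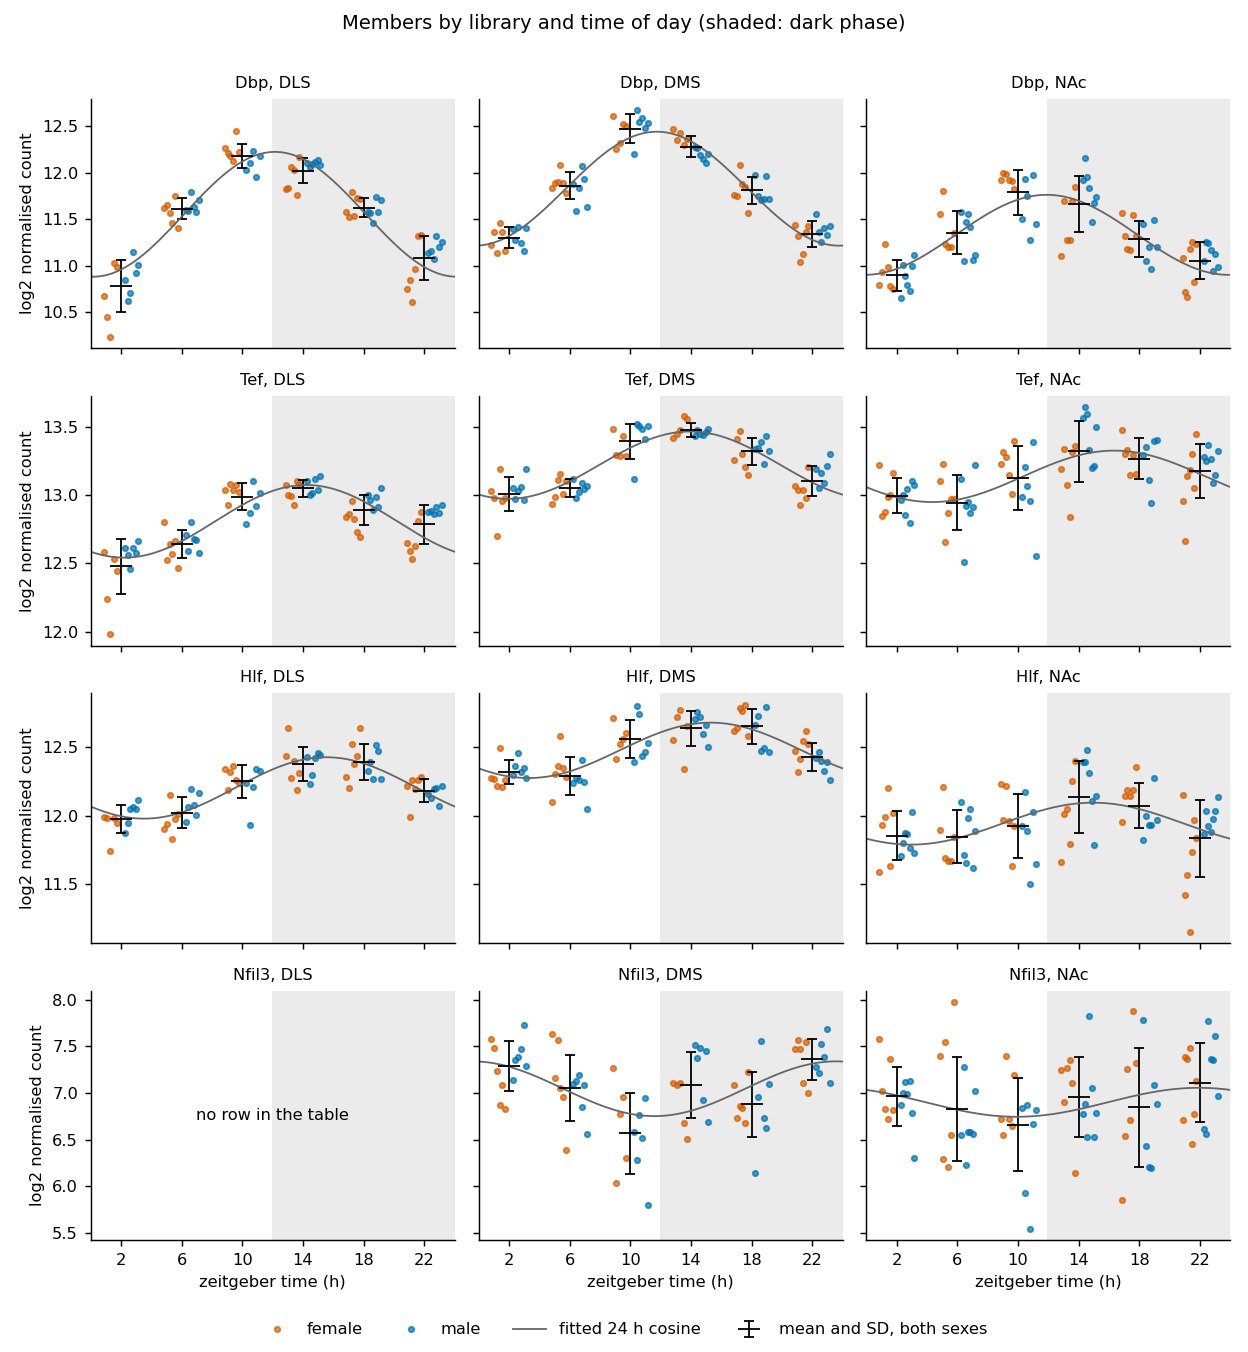
Log2 normalised count of each member in each library by zeitgeber time, in DLS, DMS and NAc. Points are libraries by sex, bars are mean and SD over both sexes and the line is the fitted 24 h cosine; Dbp was highest at ZT10 (DLS median 12.18), and Nfil3 was lowest at ZT10 in DMS (median 6.59).

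Tef, named for its discovery in pituitary thyrotrophs, had a smaller rhythm that was highest after lights off. In DLS its median was 12.56 (ZT2), 12.65 (ZT6), 13.02 (ZT10), 13.06 (ZT14), 12.90 (ZT18) and 12.87 (ZT22). In DMS the medians were 13.004 (ZT2), 13.06 (ZT6), 13.43 (ZT10), 13.46 (ZT14), 13.33 (ZT18) and 13.08 (ZT22), and in NAc 13.003 (ZT2), 12.95 (ZT6), 13.17 (ZT10), 13.33 (ZT14), 13.30 (ZT18) and 13.21 (ZT22). ZT14 had the highest mean in all 3 subregions, and the next time in the order (ZT10 in DLS and DMS, ZT18 in NAc) lay within the larger SD. In NAc no neighbours in the order stood farther apart than that.

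The 12 DLS libraries at ZT14 had Tef at 12.93 to 13.14 (median 13.06), against 11.98 to 12.67 (median 12.56) in 11 at ZT2, with no overlap and a difference of 0.58 ± 0.05 (adjusted p = 4.14e-15). In DMS the 11 libraries at ZT14 had 13.42 to 13.58 (median 13.46), against 12.70 to 13.19 (median 13.004) in 12 at ZT2, also apart, with a difference of 0.46 ± 0.04 (adjusted p = 1.14e-12). In NAc the 13 libraries at ZT14 had 12.84 to 13.64 (median 13.33), against 12.80 to 13.22 (median 13.003) in 13 at ZT2. These overlap, and the difference was 0.33 ± 0.08 (adjusted p = 0.0314); it lost its call when any of 9 single libraries was left out (adjusted p up to 0.0732).

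The fitted amplitude of Tef was 0.27 ± 0.02 in DLS, 0.25 ± 0.02 in DMS and 0.19 ± 0.03 in NAc, folds of 1.45, 1.41 and 1.30 (adjusted p = 2.67e-15, 3.59e-17 and 0.000138). The peaks were at ZT14.2, ZT13.9 and ZT16.3. Tef was higher at ZT18 than at ZT6 in all 3 subregions, by 0.25 ± 0.05, 0.27 ± 0.04 and 0.32 ± 0.08 (adjusted p = 0.000164, 3.3e-06 and 0.022), although in NAc 3 single libraries decided the call (adjusted p up to 0.0681 without one of them). ZT22 minus ZT10 was -0.21 ± 0.05 in DLS and -0.29 ± 0.04 in DMS (adjusted p = 0.00346 and 3.15e-06), and 0.05 ± 0.08 in NAc (adjusted p = 0.947). Tef lies at chr15:81802421-81826863 (+), where the antisense gene Gm17597 overlaps it by 193 bases.

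Hlf, the third PAR bZIP gene, named for the human hepatic leukaemia factor, was highest in the first part of the dark phase. In DLS its median was 11.99 (ZT2), 12.01 (ZT6), 12.26 (ZT10), 12.41 (ZT14), 12.39 (ZT18) and 12.20 (ZT22). In DMS the medians were 12.29 (ZT2), 12.28 (ZT6), 12.53 (ZT10), 12.66 (ZT14), 12.65 (ZT18) and 12.42 (ZT22), and in NAc 11.87 (ZT2), 11.84 (ZT6), 11.94 (ZT10), 12.14 (ZT14), 12.07 (ZT18) and 11.90 (ZT22). Hlf lies at chr11:90336536-90390895 (-). ZT18 and ZT14 had the highest means and lay within the larger SD of each other in all 3 subregions. In NAc no neighbours in the order stood farther apart than that.

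At ZT18 the 12 DLS libraries had Hlf at 12.21 to 12.64 (median 12.39), against 11.83 to 12.19 (median 12.01) in 12 at ZT6, with no overlap and a difference of 0.37 ± 0.05 (adjusted p = 3.12e-08). In DMS the 12 libraries at ZT18 had 12.46 to 12.81 (median 12.65), against 12.05 to 12.58 (median 12.28) in 12 at ZT6, which overlap, with a difference of 0.36 ± 0.05 (adjusted p = 2.54e-07). In NAc the 12 libraries at ZT18 had 11.83 to 12.36 (median 12.07), against 11.62 to 12.21 (median 11.84) in 13 at ZT6. These overlap over most of their range, and the difference of 0.23 ± 0.09 did not pass (adjusted p = 0.294). ZT14 minus ZT2 was 0.40 ± 0.05, 0.32 ± 0.05 and 0.28 ± 0.09 in DLS, DMS and NAc (adjusted p = 1.9e-09, 1.1e-05 and 0.184).

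The amplitude of Hlf was 0.22 ± 0.02 in DLS, 0.20 ± 0.02 in DMS and 0.15 ± 0.04 in NAc, folds of 1.36, 1.32 and 1.24 with peaks at ZT15.5, ZT15.3 and ZT14.9 (adjusted p = 1.59e-14, 1.14e-10 and 0.0219). The NAc call was lost when time was fitted as 6 separate levels (adjusted p = 0.0789). Tef and Hlf both lost their calls in DMS and NAc, but not in DLS, when libraries were scaled to an equal sum. As the mean of a time, this scaling shifted all genes by -0.17 (ZT18) to 0.16 (ZT22) in DMS. The range was -0.16 (ZT6) to 0.12 (ZT22) in DLS and -0.05 (ZT22) to 0.07 (ZT2) in NAc. The DLS mean at ZT6 includes the library high in Gm42418, whose shift of -2.36 was the lowest in DLS. With an equal sum outside the 10 most abundant genes Tef and Hlf were called in all 3 subregions.

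Nfil3, the D-box repressor, was among the less abundant listed genes and ran opposite to Dbp in DMS. Its mean ranked at the 7.97 percentile of listed genes in DMS and the 7.09 percentile in NAc, by level not corrected for length. The gene lies at chr13:52967209-52981073 (-). In DMS the medians were 7.32 (ZT2), 7.09 (ZT6), 6.59 (ZT10), 7.11 (ZT14), 6.85 (ZT18) and 7.43 (ZT22), and in NAc 6.99 (ZT2), 6.58 (ZT6), 6.72 (ZT10), 6.90 (ZT14), 6.80 (ZT18) and 7.24 (ZT22). In both the mean was highest at ZT22 and lowest at ZT10, and no neighbours in the order differed by more than the larger SD.

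The 12 DMS libraries at ZT22 had Nfil3 at 7.00 to 7.68 (median 7.43), against 5.80 to 7.27 (median 6.59) in 11 at ZT10, which overlap, with a difference of 0.80 ± 0.14 (adjusted p = 9.12e-05). With the class term it was 0.64 ± 0.13 (adjusted p = 0.00106). In NAc the 14 libraries at ZT22 had 6.46 to 7.77 (median 7.24), against 5.54 to 7.40 (median 6.72) in 12 at ZT10. That difference, 0.45 ± 0.19, did not pass (adjusted p = 0.537). ZT14 minus ZT2 was -0.21 ± 0.14 in DMS and -0.01 ± 0.19 in NAc, and ZT18 minus ZT6 was -0.18 ± 0.14 and 0.01 ± 0.19, none of them called.

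The cosine fit gave Nfil3 an amplitude of 0.29 ± 0.06 in DMS (fold 1.502, peak ZT23.6, adjusted p = 0.000858) and of 0.16 ± 0.08 in NAc (fold 1.24, peak ZT21.9, adjusted p = 0.495). With the class term the DMS amplitude was 0.22 ± 0.06 (peak ZT22.4, adjusted p = 0.00992). Within the high class alone it was 0.22 (adjusted p = 0.246) and within the low class alone 0.21 (adjusted p = 0.106), so the call did not hold within either class. The SD of Nfil3 at a time was 0.22 to 0.44 in DMS and 0.31 to 0.64 in NAc, and that of Dbp 0.11 to 0.15 and 0.17 to 0.30.

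In all, 3 of 3 members were called rhythmic in DLS, where 21% of all genes were, 4 of 4 in DMS, where 51.3% were (25.2% with the class term, and again 4 of 4), and 3 of 4 in NAc, where 2.56% were. For ZT14 minus ZT2 the members called were 3 of 3 in DLS, 3 of 4 in DMS and 2 of 4 in NAc, beside 8.29%, 15.3% and 0.236% of all genes. For ZT18 minus ZT6 they were 2 of 3, 2 of 4 and 1 of 4, beside 7.01%, 17.4% and 0.657%. For ZT22 minus ZT10 they were 2 of 3, 3 of 4 and 1 of 4, beside 6.34%, 10.7% and 0.261%. With the class term all 4 were called in DMS for ZT22 minus ZT10, beside 4.97% of all genes, with Hlf at -0.17 ± 0.05 (adjusted p = 0.0281), against -0.13 ± 0.05 without it (adjusted p = 0.0716).

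**Figure D2:**
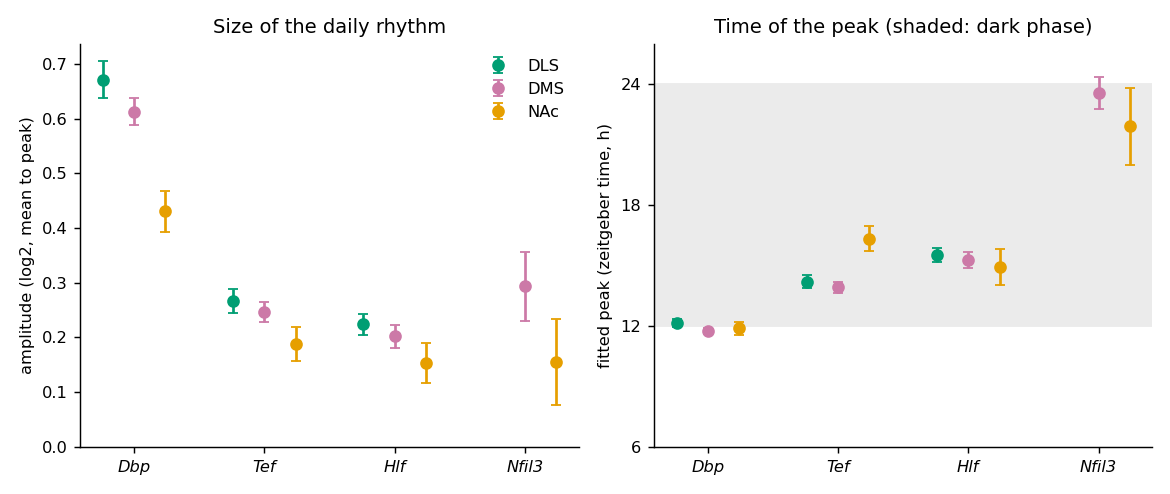
Fitted amplitude (log2) and fitted peak (zeitgeber time, h) of each member in DLS, DMS and NAc; bars are SE. Dbp had the largest amplitude of the members in each subregion (0.67, 0.61 and 0.43), and Nfil3 peaked at ZT23.6 in DMS and ZT21.9 in NAc.

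With the sexes together, the activators peaked one after the other in DLS and DMS. In DLS the Tef peak minus the Dbp peak was 2.06 h (95% interval 1.52 to 2.59 h) and Hlf minus Tef was 1.31 h (0.501 to 2.12 h). In DMS Tef minus Dbp was 2.18 h (1.72 to 2.65 h) and Hlf minus Tef 1.36 h (0.544 to 2.19 h). In NAc Tef minus Dbp was 4.46 h (3.19 to 5.73 h), Hlf minus Dbp 3.06 h (1.34 to 4.78 h) and Hlf minus Tef -1.40 h (-3.16 to 0.353 h). The order of Dbp, Tef and Hlf was thus resolved in DLS and DMS in the fit of both sexes. Within DLS females Tef peaked at ZT13.5 ± 0.346 and Hlf at ZT15.6 ± 0.402 (h ± SE). Within DLS males they peaked close together, at ZT15.2 ± 0.484 and ZT15.4 ± 0.545, and the order within a sex was not tested. In NAc the lead of Dbp over Hlf differed in size between ranges of animal numbers, a difference that was not tested. In animals numbered 31 and above (n = 29) Dbp peaked at ZT12.6 ± 0.480 and Hlf at ZT18.1 ± 0.850 (h ± SE), and in those numbered 30 and below (n = 48) Dbp at ZT11.4 ± 0.429 and Hlf at ZT12.4 ± 0.998. Tef peaked at ZT18.1 ± 1.21 and ZT15.5 ± 0.697 in these ranges, after Dbp in both, although neither the Tef nor the Hlf rhythm was called in the higher range. Nfil3 minus Dbp was 11.8 h in DMS (10.3 to 13.4 h; 10.6 h, 8.59 to 12.6 h, with the class mean removed). In NAc, where the Nfil3 rhythm was not called, it was 10.0 h (6.20 to 13.9 h).

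The log2 ratio of a pair of members in the same library does not depend on the scaling of that library, apart from the pseudocount. Whether the unrecorded adjustment of the NAc values also cancels in a ratio is not known. The ratio of Dbp to Nfil3, activator over repressor of the D-box, was 3.57 to 4.43 (median 3.99) in the 12 DMS libraries at ZT22, against 5.33 to 6.73 (median 5.79) in the 11 at ZT10, with no overlap. In NAc it was 3.29 to 4.79 (median 3.92) in the 14 libraries at ZT22, against 4.58 to 6.00 (median 5.20) in the 12 at ZT10, which overlap. The fitted swing was a fold of 3.51 from trough to peak in DMS (2.80 with the class mean removed) and 2.21 in NAc, with peaks at ZT11.7 and ZT11.4. In both the permutation p was 1e-05, the smallest that 100000 resamples can give, and 1.5e-05 when adjusted over the 15 combinations of ratio and subregion. A ratio carries the rhythms of its own members, so here and below its p is not a separate test of either member. The Dbp rhythm was called in both subregions, and that of Nfil3 in DMS only.

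The ratio of Tef to Nfil3 swung by a fold of 2.04 in DMS (permutation p = 1e-05) and 1.38 in NAc (permutation p = 0.0289, adjusted 0.031). That of Hlf to Nfil3 swung by 1.84 in DMS (permutation p = 1e-05) and 1.40 in NAc (permutation p = 0.0229, adjusted 0.0265). Among the activators, Dbp to Tef swung by a fold of 1.90, 1.81 and 1.73 in DLS, DMS and NAc and Dbp to Hlf by 2.16, 2.05 and 1.61 (permutation p = 1e-05 in each). Tef to Hlf moved least, by 1.14, 1.13 and 1.10 (permutation p = 0.00262, 0.00076 and 0.161), and in NAc it was the 1 combination of 15 that did not pass 0.05 after adjustment.

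**Figure D3:**
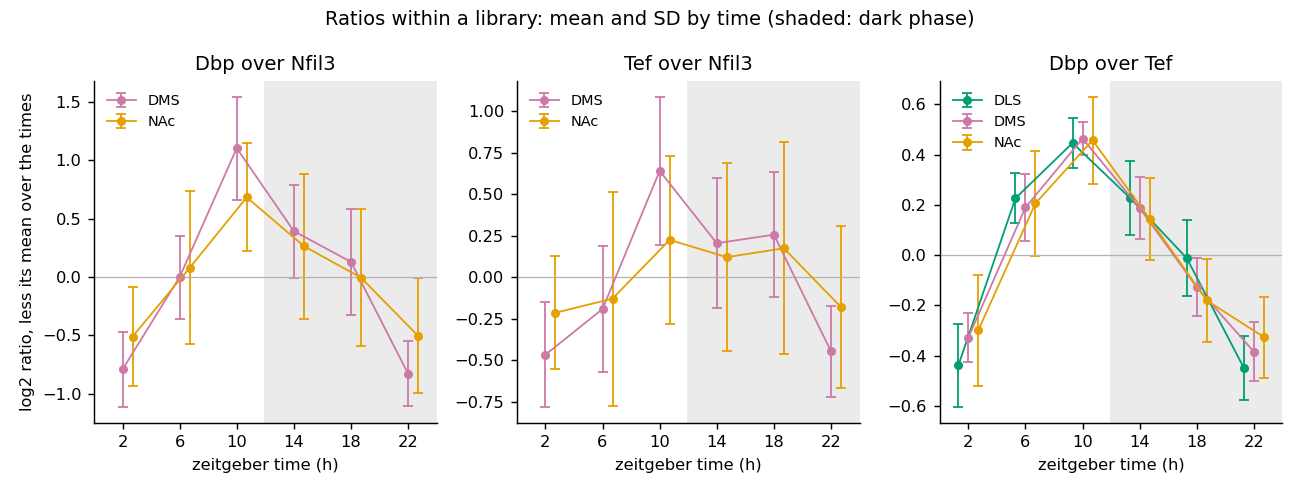
Log2 ratios between members within a library, by zeitgeber time, for Dbp over Nfil3, Tef over Nfil3 and Dbp over Tef, drawn as mean and SD over libraries with the mean over the times subtracted, in each subregion where both members were listed. Before that subtraction the Dbp to Nfil3 ratio in DMS had a median of 3.99 at ZT22, against 5.79 at ZT10.

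The rhythm of Dbp was larger in DLS than in NAc. In a joint limma fit of the 11283 genes in all tables its amplitude in DLS minus that in NAc was 0.24 ± 0.05 (95% interval 0.15 to 0.33, adjusted p = 0.0033 for amplitude and phase together, as in all tests of subregions), and the peak times differed by 0.270 h (-0.399 to 0.939 h). Dbp was the 1 member of 3 called in this contrast, beside 0.257% of all genes. For Dbp DMS minus NAc was 0.18 ± 0.05 (0.09 to 0.27, adjusted p = 0.0978) and DLS minus DMS 0.06 ± 0.05 (-0.03 to 0.15, adjusted p = 0.617), contrasts in which 0% and 0% of genes were called in limma. At an unadjusted p under 0.05, 2 of 3 members (Dbp and Tef) differed between DMS and NAc and 0 of 3 between DLS and DMS. The share of all genes at that unadjusted threshold was not computed, so these counts do not set the members apart from other genes.

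The Tef peak in DLS minus that in NAc was -2.13 h (-3.32 to -0.946 h; adjusted p of the whole rhythm = 0.0735), and in DMS minus NAc -2.41 h (-3.63 to -1.19 h; adjusted p = 0.0976). With the animal as a block, since 77 of the 93 animals gave more than 1 subregion, the Tef difference between DLS and NAc passed (adjusted p = 0.0476) and that of Dbp was still called (adjusted p = 0.00196). The Hlf amplitude difference, DLS minus NAc, was 0.07 ± 0.04 (-0.005 to 0.15, adjusted p = 0.691). For Nfil3, fitted on the 11721 genes of the DMS and NAc tables (0% called), DMS minus NAc was 0.14 ± 0.10 (-0.06 to 0.34, adjusted p = 0.538). The unrecorded adjustment of the NAc values and the subregion itself cannot be told apart in these contrasts.

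Dbp in DLS stood apart at its trough between animals numbered 31 and above and those numbered 30 and below, ranges whose meaning the labels do not give and which were compared after the data had been seen. At ZT2 Dbp was 10.92 to 11.14 (median 11.01) in the 5 DLS libraries of the higher range, against 10.23 to 10.84 (median 10.65) in the 6 of the lower, with no overlap, and this gap was not tested at the single time. At ZT22 the medians were 11.29 in the higher and 10.91 in the lower range (6 libraries each), and the ranges of values overlapped. The DLS amplitude of Dbp was 0.57 ± 0.03 in the higher range (n = 39) and 0.76 ± 0.05 in the lower (n = 31), a difference that did not pass adjustment (p = 0.00622, adjusted p = 0.356).

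Within the higher range DLS minus NAc for Dbp was 0.16 (adjusted p = 0.201, 1.38% of genes called), and within the lower range 0.30 (adjusted p = 0.0474, 0.0798% called). The sign was the same in both and the call held in the lower range only. Tef was called in the higher range (amplitude difference 0.07, adjusted p = 0.0477) and not in the lower (0.07, adjusted p = 0.304). The Hlf peak in NAc was ZT18.1 in the higher and ZT12.4 in the lower range (adjusted p of the difference = 0.234). No member passed the test of a difference between ranges, beside 0%, 0.00826% and 0% of genes in DLS, DMS and NAc, and the unadjusted p was under 0.05 for Dbp in DLS and Hlf in NAc. Of all genes 18.8%, 10.2% and 0.27% were rhythmic in the higher range alone in DLS, DMS and NAc, and 2.91%, 21.1% and 2.01% in the lower, and Dbp was called in all 6.

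**Figure D4:**
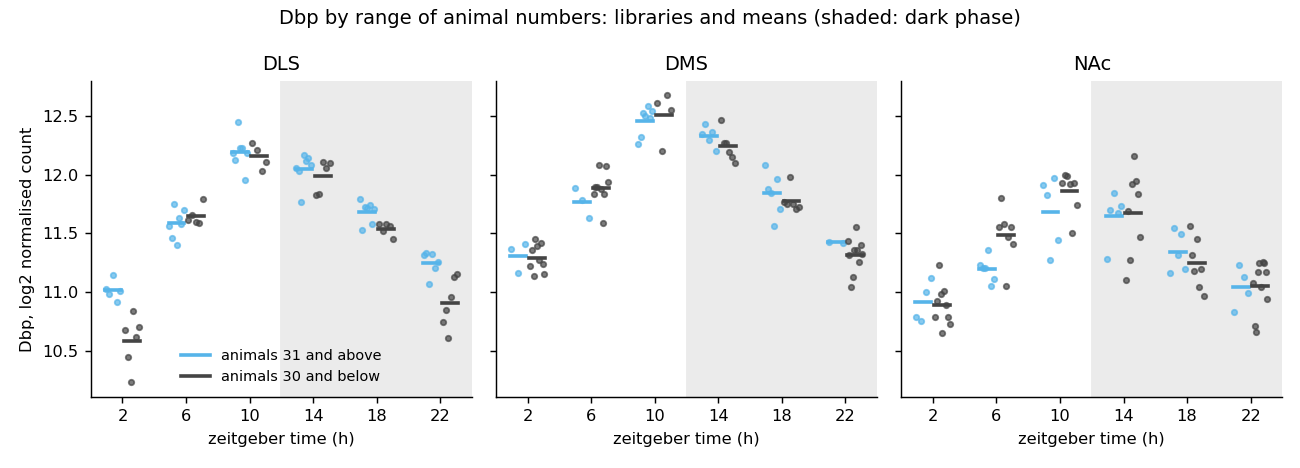
Dbp (log2 normalised count) by zeitgeber time in DLS, DMS and NAc, with libraries of animals numbered 31 and above left of those numbered 30 and below. Points are libraries; short lines are means. In DLS at ZT2 the median was 11.01 for numbers 31 and above and 10.65 for 30 and below, with no overlap, and at the other times and in DMS and NAc the ranges of values overlapped.

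No member passed the test of a difference in rhythm between females and males (0%, 0% and 0% of genes called in limma). At an unadjusted p under 0.05 the 1 member was Tef in DLS (adjusted p = 0.306), with an amplitude of 0.32 and a peak at ZT13.5 in females, and 0.23 and ZT15.2 in males. Dbp amplitudes were 0.72 in females and 0.62 in males in DLS, 0.65 and 0.58 in DMS, and 0.44 and 0.43 in NAc, each called within its sex. Within females 17.8%, 17.9% and 0.716% of genes were rhythmic in DLS, DMS and NAc, and within males 4.4%, 9.92% and 0.295%. Hlf in NAc was called in neither sex alone (adjusted p = 0.32 in females and 0.332 in males), and Tef in NAc in males only (0.272 in females and 0.00331 in males). Nfil3 in DMS was also called in males only (adjusted p = 0.0575 in females and 0.0403 in males, and 0.394 and 0.0311 with the class term), and in NAc in neither sex. In mean level no member was called between the sexes, beside 0.202%, 0.909% and 0.0758% of genes. The smallest p was that of Tef in DLS, at 12.77 ± 0.26 in 35 female and 12.85 ± 0.19 in 35 male libraries (mean ± SD), a fitted difference, female minus male, of -0.10 ± 0.03 (adjusted p = 0.138).

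The time courses of Dbp and Tef in DLS departed from a single cosine. Fitting 6 separate times improved on the cosine for Dbp (adjusted p = 0.00522) and Tef (adjusted p = 0.0301), 2 of 3 members beside 2.78% of all genes. The DLS means of Dbp were 10.78 ± 0.28 (ZT2), 11.61 ± 0.11 (ZT6), 12.18 ± 0.13 (ZT10), 12.02 ± 0.14 (ZT14), 11.62 ± 0.11 (ZT18) and 11.08 ± 0.24 (ZT22, mean ± SD, n = 11 or 12), so the step between ZT2 and ZT6 was the largest of the day. In DMS and NAc 0 of 4 members departed by adjusted p in limma, beside 1.06% and 0.0506% of genes. At an unadjusted p under 0.05 there were 2 in DMS (Nfil3, adjusted p = 0.0944, and Dbp, adjusted p = 0.29) and 0 in NAc, and the share of all genes at that threshold was not computed.

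Beyond the time of day, libraries with more Dbp also had more Tef. After the mean of each sex and time was removed, the deviations of Dbp and Tef correlated with r = 0.62, 0.59 and 0.56 in DLS, DMS and NAc (rho = 0.52, 0.48 and 0.56, n = 70, 70 and 77). The permutation p was 1e-05 for each r (3e-05 adjusted over 15 combinations of pair and subregion) and 1e-05, 3e-05 and 1e-05 for rho. Both values of a point come from 1 library and share its scaling. Without the 2 libraries farthest from the median of Dbp, r was 0.52, 0.50 and 0.56. Few genes had a higher r to Dbp than Tef did, namely 0.0527% in DLS, 0% in DMS and 0.295% in NAc. With the means of the number ranges removed as well, r was 0.51, 0.61 and 0.61 (7 DMS libraries left out), and with the class mean removed in DMS 0.60.

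Hlf deviations followed those of Dbp in DMS (r = 0.55, rho = 0.51) and NAc (r = 0.51, rho = 0.54), each with a permutation p of 1e-05 for r, and 2e-05 and 1e-05 for rho. In DLS r was 0.26 (rho = 0.28, permutation p = 0.0276, adjusted 0.0518), and 0.18 without the 2 farthest libraries. Tef with Hlf gave r = 0.18 in DLS (permutation p = 0.124), 0.31 in DMS (adjusted permutation p = 0.0218 for r and 0.116 for rho; r = 0.44 and rho = 0.28 with the class mean removed, adjusted permutation p = 0.000375 and 0.0366) and 0.37 in NAc (adjusted permutation p = 0.0021). No pair with Nfil3 passed. With Dbp its r was -0.10 in DMS (permutation p = 0.409; -0.24 with the class mean removed, adjusted permutation p = 0.0831) and -0.14 in NAc (permutation p = 0.239).

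**Figure D5:**
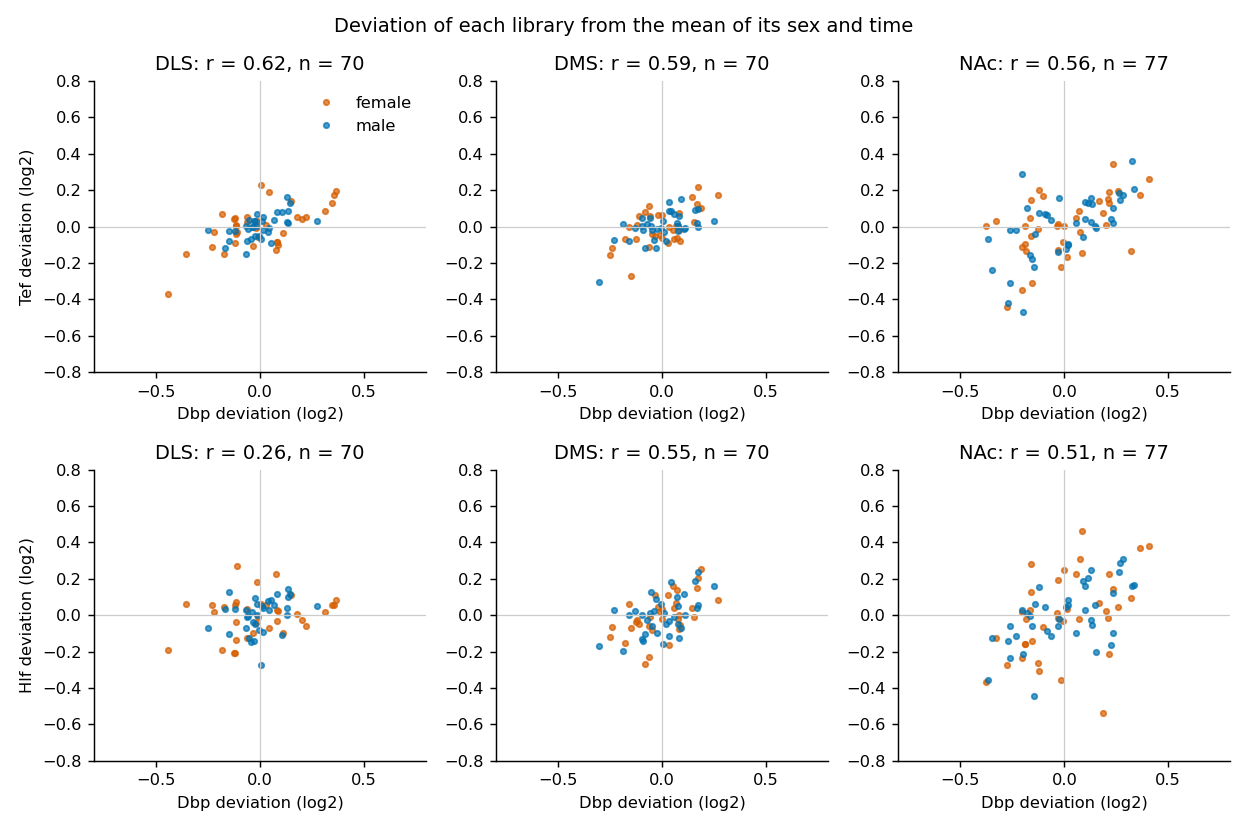
Deviation of a member from the mean of its sex and time against that of Dbp, log2, 1 point per library, in DLS, DMS and NAc. Tef followed Dbp in each subregion (r = 0.62, 0.59 and 0.56), and Hlf gave r = 0.26, 0.55 and 0.51.

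By the 12 means of sex and time, centred within sex and averaged over the 3 subregions, the genes most like Dbp among 141 of sufficient amplitude were Ciart (mean r = 0.97), Rbm3 (0.95), Bhlhe40 (0.93), Ano2 (0.93) and Camkk1 (0.91). Ciart encodes a repressor of CLOCK and BMAL1, Rbm3 a cold-induced RNA-binding protein and Bhlhe40 a repressor that binds E-boxes. Those most like Tef were Slc2a1 (0.85), which encodes the glucose transporter GLUT1, Xdh (0.82), Smim3 (0.80), Atp10a (0.80) and Mthfd1l (0.795). Tef itself correlated at 0.86 with Hlf and 0.70 with Dbp (0.83 in DLS, 0.83 in DMS and 0.45 in NAc). Those most like Hlf were Per2 (0.82), a core clock repressor gene, Bhlhe41 (0.79), Camk1g (0.78), Epop (0.77) and Mthfd1l (0.77). For Nfil3, over DMS and NAc and 376 genes, they were Sbno2 (0.67), Oprd1 (0.65), Arntl (0.64), which encodes BMAL1, Egr1 (0.64) and Uaca (0.64). The mean r of Nfil3 with Dbp was -0.62 (-0.80 in DMS and -0.45 in NAc). These correlations describe time courses of the same libraries and carry no test.

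The clock genes around the family were rhythmic in the same libraries. Of 3 activators that act through E-boxes, the inputs to Dbp, 3 were rhythmic in DLS, 3 in DMS and 1 in NAc, beside 21%, 51.3% and 2.56% of all genes. Arntl was called in all 3 subregions and peaked opposite to Dbp, at ZT23.5, ZT23.5 and ZT23.9 (amplitudes 0.51, 0.48 and 0.38, adjusted p = 1.7e-16, 3.47e-15 and 6.25e-10). Of 8 repressors of these activators 8, 8 and 5 were rhythmic, beside the same shares of all genes. Their median amplitude was 0.49, 0.33 and 0.26, beside 0.07, 0.11 and 0.07 over all genes. Ciart peaked at ZT11.9, ZT11.8 and ZT11.2, close to Dbp, with amplitudes of 1.23, 0.98 and 0.75. Per2 peaked at ZT15.6, ZT17.0 and ZT15.6 and Cry1 at ZT19.5, ZT18.6 and ZT18.9.

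Of 4 measured nuclear receptors that act on ROR elements, the inputs to Nfil3, Nr1d1 and Nr1d2 were rhythmic in each subregion. That is 2 of 4, beside 21%, 51.3% and 2.56% of all genes in DLS, DMS and NAc. Nr1d1 peaked before Dbp, at ZT9.44, ZT9.37 and ZT8.96 (amplitudes 0.77, 0.62 and 0.52). Nfil3 had its lowest mean at ZT10 in DMS and NAc. In NAc, however, its rhythm was not called, and its lowest median was at ZT6 (6.58, against 6.72 at ZT10). A link between Nr1d1 and Nfil3 was not tested. Rora and Rorb were not called, with amplitudes in DMS of 0.02 (adjusted p = 0.638) and 0.07 (adjusted p = 0.173).

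In other tissues 14 measured genes are described as D-box or PAR bZIP targets, a list that shares clock genes with those above. Of the 14 targets, 10 were rhythmic in DLS, 10 in DMS (9 with the class term) and 4 in NAc. Of all genes, 21%, 51.3% (25.2% with the class term) and 2.56% were. With a replicate block on the number that a male and a female share, Ddc lost its call in DLS and DMS (adjusted p = 0.0525 and 0.0559). Its DMS call was also lost with the class term (0.213), the number range term (0.118) and the ribosomal RNA covariate (0.197). The same held at an equal sum (0.732), in the low (0.391) and high (0.257) class alone, and with a second cosine (0.0558), 6 time levels (0.0905) and limma-voom (0.0553). Its DLS call was lost at an equal sum (0.496) and with a second cosine (0.0712). Of the rhythmic targets, 8, 8 and 3 peaked in the dark phase, as did 52.1%, 50.4% and 56.9% of all rhythmic genes. The median amplitude of the list was 0.20, 0.17 and 0.17, beside the medians over all genes given above. Wee1, a cell cycle kinase gene, peaked at ZT18.0 in DLS and ZT16.3 in DMS (adjusted p = 6.33e-05 and 1.35e-05), and Usp2, a ubiquitin protease gene, at ZT10.7 and ZT8.42 (adjusted p = 2.66e-06 and 0.00276). With the class term Usp2 peaked at ZT10.4 in DMS (adjusted p = 3.45e-06). Usp2 was not called in the high class alone (0.0945), nor Wee1 in the low class alone (0.0633). Pdxk, the pyridoxal kinase gene that the PAR bZIP factors are known to drive in brain, was rhythmic in DLS (amplitude 0.08, fold 1.12, peak ZT15.6, adjusted p = 0.0132; 0.0754 with time as 6 levels and 0.557 at an equal sum). In DMS its amplitude was 0.05 (adjusted p = 0.115), and 0.08 with the class term (adjusted p = 0.0063). In NAc it was 0.03 (adjusted p = 0.87).

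Of listed C/EBP relatives, 2 of 4 measured were rhythmic in DLS, 4 of 6 in DMS and 0 of 5 in NAc. With the class term 3 were rhythmic in DMS. Of all genes 21%, 51.3% (25.2% with the class term) and 2.56% were rhythmic in DLS, DMS and NAc. The list holds Cebpz, which shares the name but is not a leucine zipper factor. Cebpz was called in DMS (adjusted p = 0.0218 in limma, 0.0392 with the class term), so the counts are not of leucine zipper factors alone. In NAc Cebpg was the 1 relative with an unadjusted p under 0.05 in limma (adjusted p = 0.14). Both DLS calls, Cebpa (adjusted p = 0.0394) and Cebpg (0.0484), were lost with the replicate block (adjusted p = 0.0514 and 0.0638), the ribosomal RNA covariate (0.0586 and 0.0719), an equal sum (0.705 and 0.521) and an equal sum outside the 10 most abundant genes (0.0902 and 0.0514). That of Cebpa was also lost with the number range term (0.0506) and a second cosine (0.0519). In DMS Cebpa had an amplitude of 0.23 with a peak at ZT12.8 (adjusted p = 7.88e-05), a call lost at an equal sum (0.253) and in the low class alone (0.19). Of Fbxw7, Csnk1d and Csnk1e, genes of protein stability in the clock, 2 were rhythmic in DMS, beside the same 51.3% of all genes. They were Csnk1d and Csnk1e, the second with an adjusted p of 0.423 under the class term and 0.0727 with the replicate block. In DLS and NAc 0 of the stability genes were rhythmic, also at an unadjusted p under 0.05 in limma.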

How the data were processed

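Per the labels, total RNA from 1 mm punches of DLS, DMS and NAc was made into stranded libraries, and 217 libraries were analysed. Paired 75-base reads (NextSeq 500) were aligned with HISAT2 2.1.0 to Ensembl GRCm38 and counted with HTSeq 0.10.0, per the labels' design text. The submitters' processing notes also list FastQC and Trimmomatic, and GRCh38 in place of GRCm38. The deposited values are log2 normalised counts, which the authors made with DESeq2 after a filter on low values, separately in each subregion, per the labels. In DLS and DMS all values came out as whole reads (within 0.01 reads) once the size factors were removed, and in NAc a median of 2.02% did, so DLS, DMS and NAc were never pooled for levels. Columns were matched to samples by title, and 0 were left unmapped.

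Rhythms were fitted with limma 3.58.1 (R 4.3.3, trended variance) as a 24 h cosine and sine plus sex in each subregion, with Benjamini-Hochberg adjustment over the whole table and a call at an adjusted p under 0.05. Differences between times 12 h apart (time as 6 levels), sexes and subregions, and departures from the cosine, used limma with the same adjustment. Ratios were tested by 100000 permutations of libraries within sex, and correlations of deviations by 100000 permutations of libraries (scipy 1.17.1, numpy 2.4.6, pandas 2.3.3). The rhythm code was first tested on simulated data. The labels number the animals, so replicates within a group are separate animals, and 63, 57 and 51 animals gave both NAc and DMS, NAc and DLS, and DMS and DLS. The same animal's residuals correlated between subregions with a median r of 0.0427, 0.0332 and 0.0842, and the animal was used as a block in an alternative fit.

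The members and the gene lists were chosen with earlier results of these data known, so no list is independent support. Named genes are the 4 members, list genes rhythmic in any subregion (at most 8 a list, smallest adjusted p first) and the 5 genes most like each member by 12 means (amplitude of at least 0.2 in each subregion). Rora, Rorb, Pdxk in DMS and NAc, Cebpg, Fbxw7 and Sphk2 were named after their values were seen. Alternatives were a class term, each class alone, a mitochondrial ribosomal RNA covariate, a number range term, equal-sum scalings, a pseudocount of 8 in place of 1, a filter on level, a second cosine, 6 time levels, limma-voom on the recovered reads, replicate and animal blocks, and leaving out each library.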

Additional observations from a re-analysis of the deposited data

Results flagged for a closer look

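In 132 groups of a member by subregion, sex and time, 8 libraries stood apart from the rest of their group by Dixon's test, where chance gives about 1 group in 20. For Dbp, the DMS female library of animal 15 at ZT6 was at 12.08, against 11.78 to 11.89 in the others. For Hlf, the DLS female library of animal 9 at ZT2 was at 11.74, against 11.95 to 11.99. The DLS female library of animal 3 at ZT22 had Hlf at 11.99, against 12.19 to 12.28, and the DMS female library of animal 10 at ZT2 had 12.49, against 12.21 to 12.28. For Tef, the DMS male library of animal 16 at ZT10 was at 13.12, against 13.41 to 13.52.

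The remaining 3 were Nfil3 in NAc. The female library of animal 44 at ZT14 was at 6.15, against 6.90 to 7.35, the male library of animal 32 at ZT2 at 6.30, against 6.78 to 7.13, and the male library of animal 24 at ZT14 at 7.82, against 6.53 to 7.05. Leaving out any single library kept the rhythm calls of all members.

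The Dbp rhythm differed between DLS and NAc (adjusted p = 0.0033, limma, for amplitude and phase together), with an amplitude difference of 0.24. The unrecorded NAc adjustment and the number ranges are given above beside this contrast.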

How the results depend on the processing

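Dbp kept its rhythm call in all 3 subregions under every alternative run, with amplitudes of 0.567 to 0.756 in DLS, 0.483 to 0.630 in DMS and 0.405 to 0.459 in NAc, and Tef and Hlf did so in DLS. Values in parentheses with no other name are amplitudes or differences (log2). Where calls changed, the cause was not tested. With libraries at an equal sum the members called were 2 in DMS and 1 in NAc, since Tef (0.0713 in DMS, adjusted p = 0.276; 0.138 in NAc, 0.105) and Hlf (0.0607, 0.530; 0.113, 0.551) were lost, and the genes called were 217 in DLS (2392 in the fit reported) and 108 in NAc (304). The DLS libraries at an equal sum included the one high in Gm42418, and this scaling was not fitted without it. With time as 6 levels Hlf in NAc was lost (0.153) and 183 NAc genes were called, and 508 were with the mitochondrial ribosomal RNA share as a covariate. In DMS 6207 genes were called, against 3051 with the class term, 1811 in the high class alone, 948 in the low class alone, 3772 with the number range term, 3459 with the ribosomal RNA covariate and 3905 among genes at or above the median level. Nfil3 in DMS was lost in the high class alone (0.222) and the low class alone (0.211), and among animals numbered 31 and above (0.281) or 30 and below (0.196), ranges fitted alone after seeing the data. Among those numbered 31 and above, Hlf (0.231) and Tef (0.176) were lost in NAc, and the DLS minus NAc difference was lost for Dbp (0.162) and gained for Tef (0.0689). The class term gained Hlf for ZT22 minus ZT10 in DMS (-0.174). Among the list genes in DMS the peak moved by over 6 h and the call was lost for Csnk1e with the ribosomal RNA covariate (0.0331) and, at an equal sum, for Ddc (0.0489), Alas1 (0.0931) and Cry2 (0.0596).

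Leaving out each library in turn gave 2235 to 2603 rhythmic genes in DLS, 5433 to 6834 in DMS and 260 to 390 in NAc, with the members' rhythm calls kept throughout. In NAc Tef at ZT14 minus ZT2 spanned 0.299 to 0.365 (adjusted p = 0.00617 to 0.0732) and lost its call without any of 9 libraries (at ZT14 female animal 24 and male animals 21, 22, 23 and 43, at ZT2 female animals 7 and 9 and male animals 8 and 10). Tef at ZT18 minus ZT6 spanned 0.285 to 0.353 (adjusted p up to 0.0681) and lost it without female animal 27 at ZT18, female animal 36 at ZT6 or male animal 12 at ZT6. Hlf at ZT22 minus ZT10 in DMS spanned -0.152 to -0.109 and gained a call without female animal 49 at ZT22 or male animal 16 at ZT10.

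With a replicate block on the number that a male and a female share, Nfil3 in DMS had an amplitude of 0.282 (adjusted p = 0.00393) and Hlf in NAc 0.153 (adjusted p = 0.0199), and no member's rhythm call changed. Among the list genes the block lost the calls of Cebpa, Cebpg and Ddc in DLS and of Ddc and Csnk1e in DMS. Same-numbered libraries correlated with a median r of 0.0996 in DLS, 0.209 in DMS and -0.0112 in NAc (block correlations 0.148, 0.225 and -0.0244), with single pairs from -0.406 to 0.426, -0.501 to 0.669 and -0.534 to 0.361. As not every pair correlated and the labels give the number no meaning, it was not used for pairing, and what same-numbered libraries share in DMS and DLS was not tested. With an animal block the DLS minus NAc difference for Tef passed (0.0778). On the recovered reads limma-voom gave a number of genes called rhythmic in DLS of 2444, and a number of genes called rhythmic in DMS of 6145. Nfil3, the least abundant member, had the widest spread at a time (SD up to 0.64 in NAc), and in NAc depth is unknown.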
